A study of Mus musculus with 6 samples.

Results

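Alpha cells are the glucagon-secreting cells of the pancreatic islet. Glucagon, cut from its precursor by prohormone convertase 2, raises blood glucose by acting on the liver. Factors such as Pax6 and the Foxa proteins act at the glucagon gene. The 7 genes described here mark this cell type: the hormone gene Gcg, the homeodomain factors Irx1, Irx2 and Pou3f4, the secreted carrier proteins Gc and Ttr, and the chromatin remodeller Smarca1. They were chosen by name as glucagon and alpha cell markers, and all 7 were found among the 24421 genes of the deposited count table.

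RNA was sequenced from isolated pancreatic islets of C57BL/6J background mice. The 3 libraries labelled knockout carried the genotype C57.DhpsloxP.MIP1-CreERT, in which a tamoxifen-inducible Cre under a mouse insulin promoter recombines a floxed Dhps allele in β cells. The 3 others were labelled control, and the labels did not say whether these carried Cre or the floxed allele, nor the age, the agent given or what the prefix HF in all 6 titles means. Dhps encodes deoxyhypusine synthase, the first enzyme in making hypusine on eIF5A, a factor of protein synthesis. The Cre is aimed at β cells, so alpha cells in these islets are neighbours of the targeted cells.

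Totals ran from 21027737 to 22649734 counts in the knockout-labelled libraries and from 23013290 to 23249895 in the controls. Dhps itself had 266, 271 and 225 counts in the knockout-labelled libraries and 260, 321 and 312 in the controls, a log2 fold change of −0.07 ± 0.12 (SE, adjusted p = 0.742 in edgeR's quasi-likelihood test). The target gene thus did not separate the labels, and directions below are those of the libraries labelled knockout. The Dhps count sums all exons over all islet cells and its exons overlap those of Wdr83; the part of these in the Dhps values was not tested. The labels did not give the animals behind the replicates, so each p reflects spread between libraries that may be technical.

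In whole islet RNA, glucagon and its companion alpha cell genes did not pass the test between the labels. Of the 7, 6 passed the expression filter. Among these, 0 passed an adjusted p of 0.05 in edgeR's quasi-likelihood test, 1 (Gc) had an unadjusted p under 0.05 (26.5% of all genes tested did), and DESeq2 and limma-voom also called 0. Over all 13736 genes tested, 6.76% were called, 4.14% higher and 2.63% lower in the knockout-labelled libraries. The log2 fold changes were positive for 5 of the 6 and negative for Irx1, with a median of 0.31, against a median of 0.007 over all genes tested. A positive log2 fold change was found for 6994 of the 13736 genes tested. The members share their high libraries, so their directions are not independent. Values are CPM, counts scaled to library size with TMM factors, unless another scale is named. Because whole islets were sequenced, fewer cells of a type and less RNA per cell cannot be told apart.

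**Figure D1:**
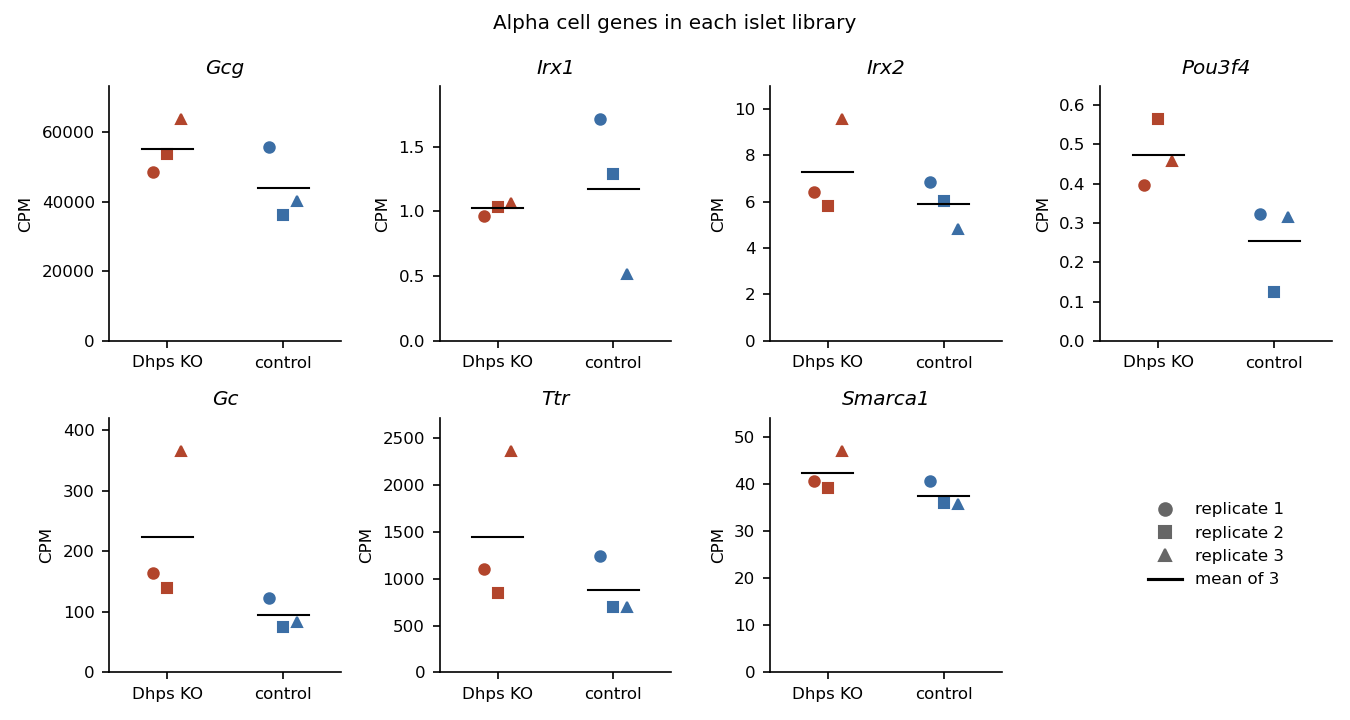
CPM of each alpha cell gene in every library, with its own linear axis from 0; points are libraries, marker shapes are replicate numbers and bars are means of 3. Knockout-labelled replicate 3 was the highest library for Gcg, Irx2, Gc, Ttr and Smarca1, and control 1 was the highest control for all 7 genes.

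Glucagon mRNA took a sizeable part of every library. Gcg (chromosome 2, 62474530 to 62483653 on the minus strand of mm10, a protein-coding gene with 6 exons in the deposited table) had 48367, 53580 and 63621 CPM in the knockout-labelled libraries, against 55686, 36091 and 40195 CPM in the controls. Control 1 lay above 2 of the knockout-labelled libraries, so the groups overlapped. The means were 55189 ± 7753 and 43991 ± 10334 CPM in the knockout-labelled and control libraries (SD, n = 3 each). The fitted difference was 1.255-fold, with a 95% interval from 0.869-fold to 1.81-fold (log2 fold change 0.33 ± 0.24 SE, adjusted p = 0.413). A rise of up to 1.81-fold or a fall to 0.869-fold therefore lay within the error of this comparison.

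As a share of all counts, Gcg took 4.85%, 5.42% and 5.88% in the knockout-labelled libraries and 5.22%, 3.725% and 4.416% in the controls. The 95% Wilson intervals were narrow, for example 5.87% to 5.89% in knockout-labelled replicate 3 and 3.72% to 3.73% in control 2, and they cover counting error only. The spread between libraries was far wider than the counting error. The mean share differed by 0.933 percentage points (exact two-sided permutation p = 0.2, where 3 against 3 libraries cannot go below 0.1). Single controls set the size of both measures. Without control 1 the share differed by 1.31 percentage points and the log2 fold change of Gcg was 0.53 (adjusted p = 0.204), and without control 2 they were 0.57 percentage points and 0.19 (adjusted p = 0.701). Without knockout-labelled replicate 3 the log2 fold change was 0.21 (adjusted p = 0.568).

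Set against the sum of both insulin messages in the same library, glucagon did not overlap between the labels, but against Ins1 alone it did. There were 0.126, 0.147 and 0.154 Gcg counts per Ins1 plus Ins2 count in the knockout-labelled libraries, against 0.120, 0.0930 and 0.118 in the controls. Every knockout-labelled library lay above every control, with 0.126 in knockout-labelled replicate 1 and 0.120 in control 1 as the nearest pair. In CPM, 32.1% of all genes tested showed no overlap between the labels, and the share per insulin count was not computed. The ratio was 1.29-fold higher, a log2 difference of 0.37 (exact permutation test, two-sided, p = 0.1, which 3 against 3 cannot go below). Such a ratio needs no scaling factor. Per Ins1 count alone, Gcg was at 0.5151 in knockout-labelled replicate 1, against 0.5164 in control 1, so the labels overlapped (log2 difference 0.24, exact permutation p = 0.2). Per Ins2 count alone they did not overlap (log2 difference 0.41, exact permutation p = 0.1). Without control 2 the log2 difference against both insulins was 0.25. In the fit over all genes neither Ins1 (log2 fold change 0.09 ± 0.22, adjusted p = 0.838) nor Ins2 (−0.08 ± 0.25, adjusted p = 0.875) was called, and these paralogs may share reads. Gcg took 11.4% ± 1.04 and 9.23% ± 1.24 of the summed counts of 6 hormone genes (the 2 insulins, Iapp, Sst, Ppy and Gcg itself) in the knockout-labelled and control libraries (SD, n = 3 each, exact permutation p = 0.1).

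The sequence before the Gcg start is shown because glucagon is the defining message of the cell. The 250 bases before the RefSeq start (GRCm38.p6, chr2:62483654-62483903, minus strand) read as follows, with capitals marking TATAAA, the TATA box letters, and TAAT, a core that many homeodomain proteins recognise, on either strand.
Gcg: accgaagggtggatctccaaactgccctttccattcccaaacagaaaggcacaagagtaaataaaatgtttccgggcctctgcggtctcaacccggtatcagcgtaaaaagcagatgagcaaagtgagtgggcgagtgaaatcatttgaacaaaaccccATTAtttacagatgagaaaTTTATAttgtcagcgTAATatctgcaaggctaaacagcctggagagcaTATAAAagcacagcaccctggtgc
TATAAA began 24 bases before the start on the strand shown and was matched once more, on the other strand, with its far end 72 bases before it. TAAT was matched at 91 bases, on the other strand, and at 57 bases. Of 32851 RefSeq windows of the same length, 12.4% held TATAAA and 54.9% held TAAT on either strand. The matches describe letters in this window and were not tested against the counts.

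The carrier protein gene Gc showed the widest difference of the 6 tested alpha cell genes and lay just outside the threshold. Gc encodes the vitamin D-binding protein of plasma, made in bulk by the liver and, within islets, by alpha cells; in mouse it has also been described in β cells that lose their identity. It lies on chromosome 5 from 89417511 to 89457898 on the minus strand, with 13 exons. It had 163.5, 139.2 and 365.7 CPM in the knockout-labelled libraries, against 123.4, 75.7 and 82.9 CPM in the controls. The groups did not overlap, with 139.2 CPM in knockout-labelled replicate 2 and 123.4 CPM in control 1 as the nearest pair. Of all genes tested, 32.1% showed no overlap, 16.9% with the knockout-labelled libraries higher, and Gc was 1 of 6 tested members to show it. Gc was 2.37-fold higher, with a 95% interval from 1.42-fold to 3.96-fold (log2 fold change 1.25 ± 0.33, adjusted p = 0.0526). It was called without knockout-labelled replicate 2 (adjusted p = 0.0347), without control 1 (0.0456) and with no filter on low counts (0.0175), while DESeq2 gave an adjusted p of 0.0971. Over all alternatives its adjusted p ran from 0.0175 to 0.173.

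The size of the Gc difference leaned on 1 library. Without knockout-labelled replicate 3 the log2 fold change was 0.69 (adjusted p = 0.0914), and without each of the other 5 libraries it lay between 1.10 and 1.49. The same stretch before the Gc start is shown because Gc stood out among the members (GRCm38.p6, chr5:89457899-89458148, minus strand). Capitals mark GTTAAT followed by any 1 base and ATTAA, searched on both strands. These 12 letters are a shortened, non-palindromic form of the HNF1 consensus, chosen after this sequence had been seen. The full palindromic form ends in a further C, where the Gc sequence has an A, so the marked stretch does not match it. The other windows were not searched for the full form.
Gc: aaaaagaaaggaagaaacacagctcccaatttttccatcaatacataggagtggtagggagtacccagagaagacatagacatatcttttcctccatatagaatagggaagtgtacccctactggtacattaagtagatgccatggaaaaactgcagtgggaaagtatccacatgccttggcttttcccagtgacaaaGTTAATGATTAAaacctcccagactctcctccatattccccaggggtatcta
The match began 52 bases before the start, and 20 of the 32851 windows held this motif (0.0609%). It overlaps matches of TAAT, which was found 3 times in the Gc window. The Gcg window held no match to it, nor did those of Irx2, Pou3f4 and Smarca1, the other members with an entry in the promoter table.

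Ttr, which encodes the thyroxine carrier transthyretin, followed Gc in its library pattern but was not called. It had 1104, 852 and 2366 CPM in the knockout-labelled libraries, against 1245, 696 and 697 CPM in the controls. Knockout-labelled replicate 3 stood well above the other 5 libraries, and control 1 lay above the other 2 knockout-labelled libraries, so the groups overlapped. The fitted difference was 1.64-fold, with a 95% interval from 0.934-fold to 2.875-fold (log2 fold change 0.71 ± 0.36, adjusted p = 0.242). Without knockout-labelled replicate 3 the log2 fold change was 0.15 (adjusted p = 0.779), and without control 1 it was 1.05 (adjusted p = 0.119).

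Gc and Ttr are also abundant liver messages, so hepatocyte genes were read in the same libraries. The summed level of the 11 hepatocyte markers in the table, Alb, Apoa1 and Apoa2 among them, lay between 5.78 and 9.70 CPM in the knockout-labelled libraries and between 3.05 and 7.54 CPM in the controls. Albumin (Alb) had 15, 17 and 18 counts in the knockout-labelled libraries and 48, 3 and 15 in the controls. Apoa1 had 5 counts or fewer in each library. Apoa2, whose exons overlap those of Tomm40l, was the most abundant of them, with 96, 68 and 136 counts in the knockout-labelled libraries and 89, 68 and 43 in the controls. Like Gc and Ttr, Apoa2 was highest in knockout-labelled replicate 3 (log2 fold change 0.73 ± 0.37, adjusted p = 0.241). Of the 3 hepatocyte markers that could be tested, 0 were called and 1 (Fgb) had an unadjusted p under 0.05. The log2 fold changes were positive for 2 of them and negative for 1. Fgb had 37, 19 and 11 counts in the knockout-labelled libraries and 10, 12 and 10 in the controls. Its log2 fold change was 1.18 ± 0.50 (adjusted p = 0.169). The part of liver RNA in the Gc and Ttr values was not tested.

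The homeodomain factors were weakly expressed. Irx2 (chromosome 13, 72628978 to 72634194, 5 exons) had 146, 124 and 188 counts in the knockout-labelled libraries and 148, 145 and 122 in the controls. That is 6.42, 5.83 and 9.55 CPM in the knockout-labelled libraries and 6.85, 6.04 and 4.825 CPM in the controls, and the groups overlapped. Its log2 fold change was 0.30 ± 0.23 (adjusted p = 0.438), or 0.06 without knockout-labelled replicate 3. Irx1 (chromosome 13, 71958232 to 71963723, 4 exons), its neighbour in the same Iroquois cluster, had 22, 22 and 21 counts in the knockout-labelled libraries and 37, 31 and 13 in the controls. The knockout-labelled libraries were close together and lay between the highest and the lowest control. Its log2 fold change of −0.19 ± 0.46 (adjusted p = 0.836) had a 95% interval from −1.23 to 0.85, and it became 0.18 without control 1 and 0.0022 in limma-voom.

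Pou3f4, also called Brn4, is a POU homeodomain factor made in alpha cells, encoded by a single exon on chromosome X from 110814465 to 110815550 in the deposited table. It had 9, 12 and 9 counts in the knockout-labelled libraries and 7, 3 and 8 in the controls, which was too few for the expression filter. All 3 knockout-labelled counts were higher than all 3 controls by small numbers of reads. The summed counts were 30 in the knockout-labelled and 18 in the control libraries, a scaled ratio of 1.85 with an exact 95% binomial interval from 1 to 3.53 that covers counting error only. With no filter on low counts its log2 fold change was 0.855 ± 0.70 (adjusted p = 0.507). A difference in Pou3f4 was not detectable at this depth.

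Smarca1 encodes the ISWI-family remodeller SNF2L, whose transcript is richer in alpha cells than in β cells. This gene of chromosome X (47809370 to 47892552, 24 exons) had 40.7, 39.1 and 47.0 CPM in the knockout-labelled libraries, against 40.6, 36.05 and 35.7 CPM in the controls. The groups overlapped, since control 1 lay above knockout-labelled replicate 2. Its log2 fold change of 0.17 ± 0.11 (adjusted p = 0.332) had the narrowest 95% interval of the 6 tested members, from −0.07 to 0.41.

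Per length, the 7 genes lay at very different levels. On a scale of CPM per kb of exon, Gcg stood at 50586 ± 7106 and 40322 ± 9472 in the knockout-labelled and control libraries (SD, n = 3 each). Ttr followed at 1180 ± 664 and 720 ± 259, and Gc at 123 ± 68.6 and 51.9 ± 14.2, again for knockout-labelled and then control libraries. Smarca1 was at 10.4 ± 1.03 and 9.24 ± 0.672, and Irx2 at 2.95 ± 0.811 and 2.398 ± 0.414 CPM per kb in the same order of labels. Irx1 (0.496 ± 0.0243 and 0.569 ± 0.295) and Pou3f4 (0.435 ± 0.0782 and 0.235 ± 0.104) were lowest, and their library values overlapped. Every other neighbouring pair in this order was separated in all 6 libraries.

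**Figure D2:**
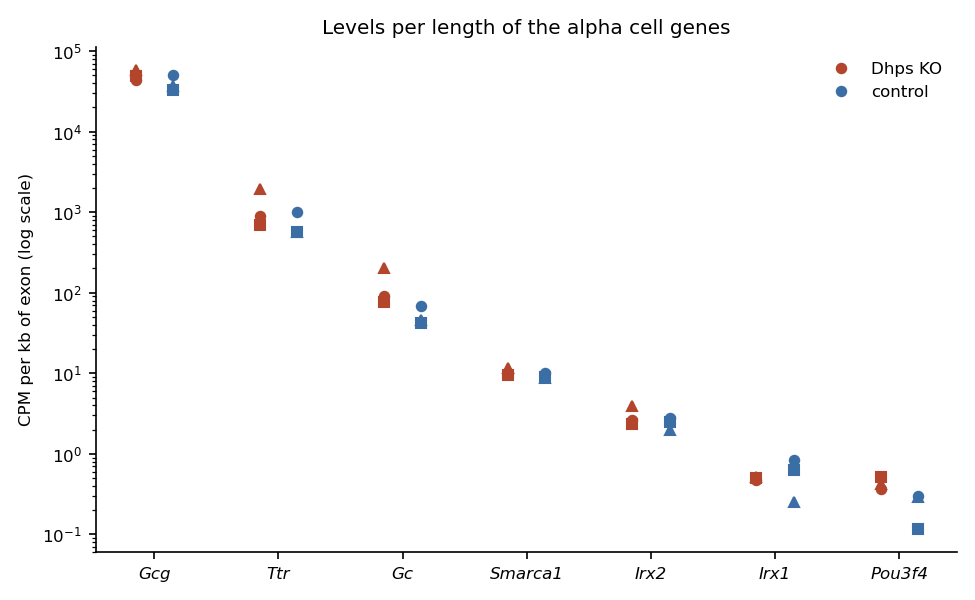
Level per exon length of the 7 alpha cell genes, ordered from high to low, on a logarithmic axis; each point is a library, with knockout-labelled libraries left of controls. Gcg averaged 50586 CPM per kb in the knockout-labelled libraries, and Irx1 and Pou3f4 overlapped below 1 CPM per kb.

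High libraries were shared among the members, within as well as between the labels. Knockout-labelled replicate 3 was the highest of the 6 libraries for 5 of the 6 tested members, against 22% of all genes tested. Control 1 was the highest control for 6 of 6, against 33.8% of all genes tested. The members share these libraries, so the counts are not independent. Among tested genes of other lists, knockout-labelled replicate 3 was highest for 4 of 10 other alpha cell genes. It was highest for 5 of 9 genes of glucagon processing and receptors, and for 0 of 10 activators of the glucagon gene. The same held for 1 of 10 β cell markers and 2 of 5 delta, PP and epsilon cell markers. It was also the highest library for 10 of 14 acinar and 3 of 8 macrophage markers, and for 0 of 5 tested duct, 0 of 6 endothelial and 0 of 7 stellate markers.

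**Figure D3:**
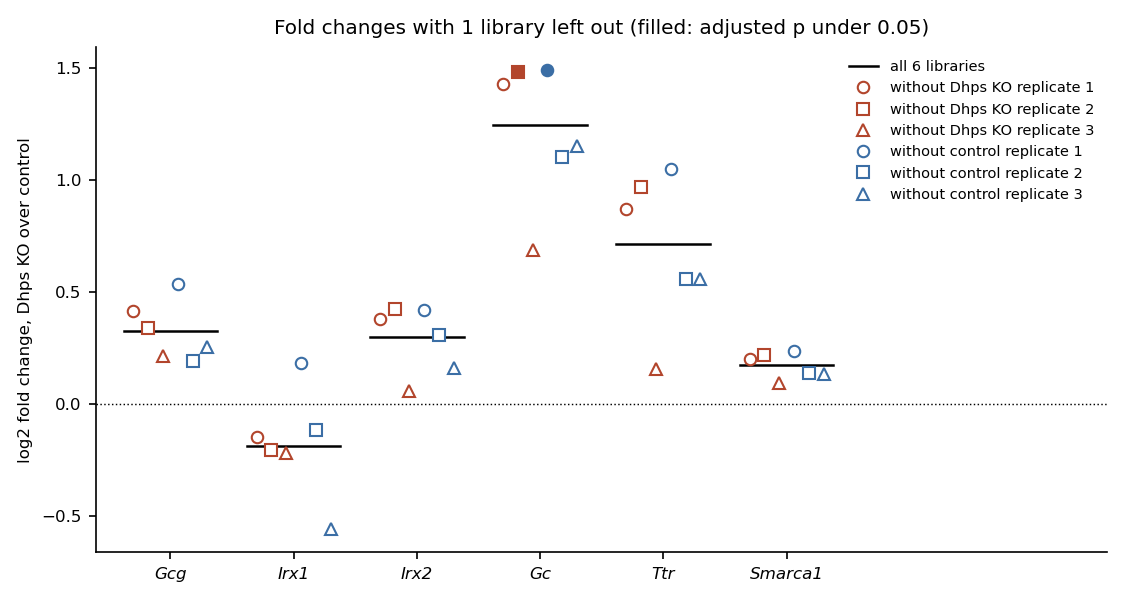
Log2 fold change of the 6 tested alpha cell genes with each library left out in turn; bars are the values from all 6 libraries and filled points have an adjusted p under 0.05. Gc was called without knockout-labelled replicate 2 or control 1, and leaving out knockout-labelled replicate 3 brought Ttr to 0.15 and Gc to 0.69.

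Ratios within a library show how the markers stood to glucagon itself. Per 10000 Gcg counts there were 33.8, 25.99 and 57.5 Gc counts in the knockout-labelled libraries, against 22.2, 20.97 and 20.6 in the controls. The controls were almost equal and every knockout-labelled library was above them, a 1.74-fold difference (log2 0.80, exact permutation p = 0.1, or 0.6 adjusted over the 6 ratios). Without knockout-labelled replicate 3 that log2 difference was 0.48. Ttr per 10000 Gcg counts was 228, 159 and 372 in the knockout-labelled libraries and 223.5, 192.9 and 173.4 in the controls, which overlapped (exact permutation p = 0.6), and its log2 difference was 0.28, or −0.04 without knockout-labelled replicate 3. Smarca1 gave 8.415, 7.30 and 7.39 in the knockout-labelled libraries and 7.29, 9.99 and 8.89 in the controls (exact permutation p = 0.4). Irx2 (log2 difference −0.06, exact permutation p = 0.7), Irx1 (−0.37, exact permutation p = 0.4) and Pou3f4 (0.59, exact permutation p = 0.2) also overlapped between the labels. Of the 6 ratios, 1 (Gc) did not overlap between the labels. Over the 13735 tested genes other than Gcg, counts per Gcg count did not overlap for 21.4%, and for 4.22% with the knockout-labelled libraries higher.

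**Figure D4:**
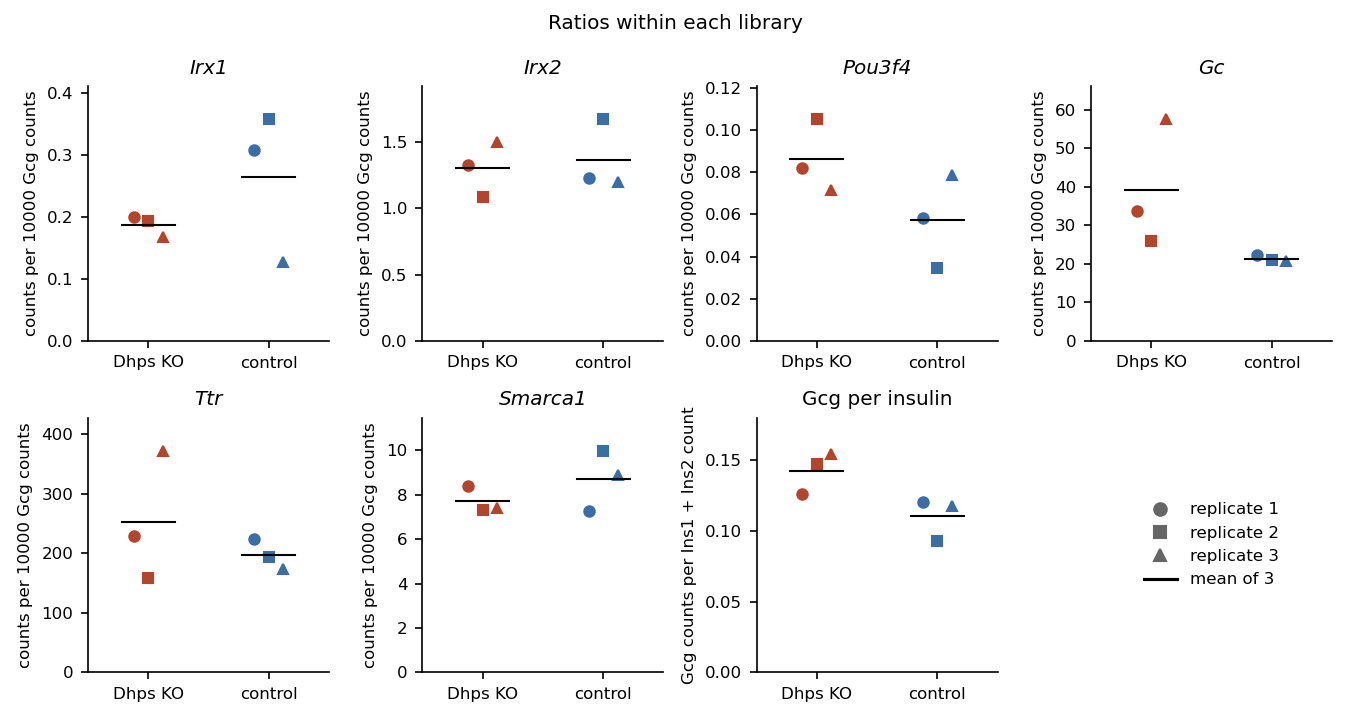
Counts of each member per 10000 Gcg counts, and Gcg counts per Ins1 plus Ins2 count, in every library, on linear axes from 0; bars are means of 3. The control Gc values lie between 20.6 and 22.2 and the knockout-labelled ones between 25.99 and 57.5.

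Other genes known from alpha cells gave a mixed picture. Of 12 listed, 10 were tested, 0 rose, 2 fell and 8 were not called, with a median log2 fold change of 0.08. The share called lower over all genes tested was 2.63%. Etv1, an ETS factor, had 60.7 ± 13.1 and 48.45 ± 6.96 CPM in the knockout-labelled and control libraries (SD, n = 3 each) and was not called (log2 fold change 0.33 ± 0.16, adjusted p = 0.223).

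Slc38a5, a glutamine transporter that alpha cells induce when amino acids are high and glucagon signalling is blocked, came close to the threshold. It had 44.7, 51.2 and 77.5 CPM in the knockout-labelled libraries, against 43.2, 16.0 and 19.6 CPM in the controls. The groups did not overlap, but control 1 nearly reached knockout-labelled replicate 1. Slc38a5 was 2.20-fold higher (log2 fold change 1.14 ± 0.34, adjusted p = 0.0681). It was called without control 1 (log2 fold change 1.70, adjusted p = 0.0105), with no filter (adjusted p = 0.028) and in limma-voom (adjusted p = 0.0476), and its adjusted p over all alternatives ran from 0.0105 to 0.196.

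The 2 genes of this list that fell were Slc7a2 and Rgs4. Slc7a2, a transporter of arginine and other cationic amino acids, had 73.2 ± 6.45 and 98.5 ± 3.93 CPM in the knockout-labelled and control libraries (SD, n = 3 each), a log2 fold change of −0.43 ± 0.10 (adjusted p = 0.0349). Rgs4, a regulator of G protein signalling listed here from human alpha cells and known in mouse from β cells, had 165 ± 31.9 and 274.5 ± 67.2 CPM (−0.73 ± 0.19, adjusted p = 0.0485). Both calls were fragile: Slc7a2 passed without knockout-labelled replicate 2 and missed without each of the other 5 libraries, with adjusted p up to 0.116. Rgs4 passed without knockout-labelled replicate 2 or control 1 and missed without each of the other 4, with adjusted p up to 0.148, and upper-quartile factors gave it 0.0541.

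**Figure D5:**
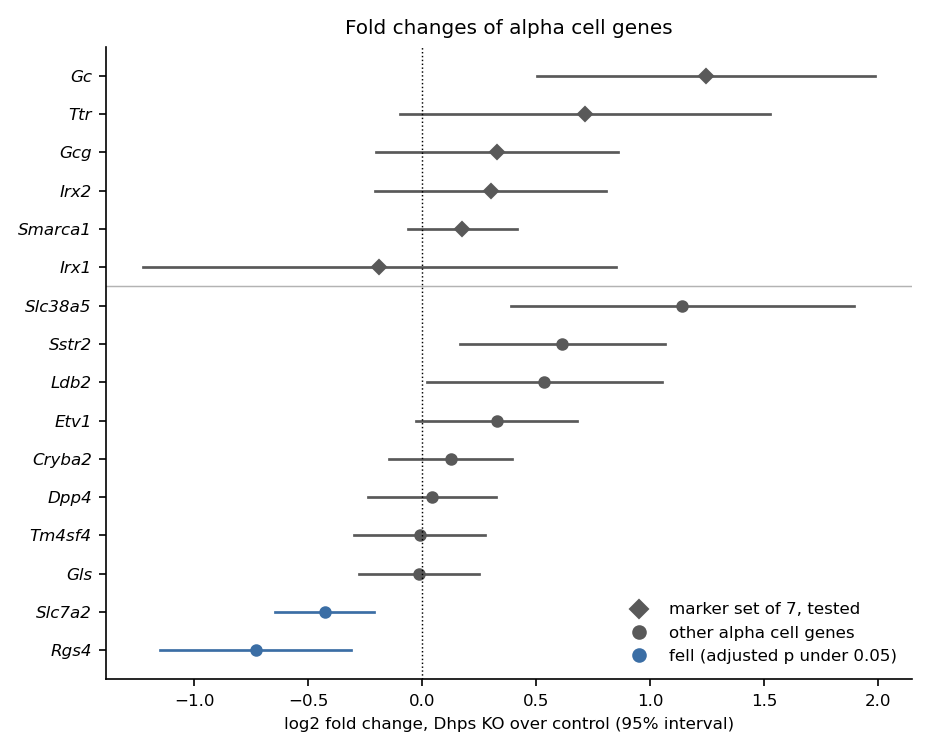
Log2 fold changes, knockout-labelled over control, with 95% intervals for the 6 tested members (diamonds) and the 10 other tested alpha cell genes (circles). The interval of Gc runs from 0.50 to 1.99, and Slc7a2 and Rgs4 are the 2 genes past the threshold, both lower.

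Receptors for the incretin hormones fell, and genes that make glucagon from its precursor were not called. Of 9 tested processing and receptor genes, 0 rose, 2 fell and 7 were not called (median −0.02). Over all genes tested, 2.63% were called lower. Whole islets were sequenced, so the counts of these genes cannot be split between alpha cells and other islet cells. Pcsk2, the convertase that cuts glucagon from its precursor and whose exons overlap the antisense gene Pcsk2os1, had 2811 ± 420 and 2844 ± 108 CPM in the knockout-labelled and control libraries (log2 fold change −0.02 ± 0.16, adjusted p = 0.963). Its chaperone Scg5 (0.10 ± 0.17, adjusted p = 0.761) and the glucagon receptor Gcgr (−0.03 ± 0.16, adjusted p = 0.924) were not called either. The 2 that fell were receptors for peptides other than glucagon itself: Glp1r, the GLP-1 receptor (−0.88 ± 0.14, adjusted p = 0.0146), and Gipr, the GIP receptor (−0.94 ± 0.14, adjusted p = 0.0128). Both missed the threshold without knockout-labelled replicate 1 (adjusted p = 0.0689 for Glp1r and 0.0518 for Gipr) and without control 2 (0.0562 and 0.0535).

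Factors that act at the glucagon gene and in other islet cells were lower in part. Of 10 tested, 0 rose, 4 fell and 6 were not called, with a median log2 fold change of −0.375. The share called lower over all genes tested was 2.63%. Pax6, which overlaps Elp4, had 89.3 ± 11.9 and 141 ± 10.9 CPM in the knockout-labelled and control libraries (−0.66 ± 0.12, adjusted p = 0.0197). Rfx6 (−0.62 ± 0.11), Isl1 (−0.67 ± 0.125) and Neurod1 (−0.52 ± 0.12) also fell, with adjusted p of 0.0169, 0.0212 and 0.0341. All 4 are expressed in β cells as well as alpha cells, and their counts cannot be split between them. Without knockout-labelled replicate 1 none of the 4 was called (adjusted p from 0.0726 to 0.0774), nor without control 2 (0.0672 to 0.0953). Without control 3 Pax6 missed as well (0.0546), and Neurod1 missed without every library except control 1.

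The families of the members added little. Of 5 relatives of Irx1 and Irx2, 3 (Irx4, Irx5 and Irx6) had 0 counts in all libraries, and Irx3 and Mkx were tested and not called. A count of 0 allows up to 3 counts in a library. Of the POU class 3 relatives of Pou3f4, Pou3f2 and Pou3f3 had 0 counts in all libraries and Pou3f1 did not pass the filter. Smarca5, the other ISWI ATPase, had 67.7 ± 11.6 and 68.4 ± 6.69 CPM in the knockout-labelled and control libraries (log2 fold change −0.01 ± 0.13, adjusted p = 0.961). Of 12 ISWI complex genes, Baz2b fell (−0.53 ± 0.14, adjusted p = 0.0466) and 11 were not called, against 2.63% of all genes tested called lower. That call was kept without knockout-labelled replicate 2 or control 1 and lost without each of the other 4 libraries, with adjusted p up to 0.139, and upper-quartile factors gave it 0.0552.

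Partners of the 2 carrier proteins were not called. Rbp4, which carries retinol in plasma bound to transthyretin and is also a delta cell gene in mouse islets, had 278, 268 and 485 CPM in the knockout-labelled libraries, against 257, 191 and 214 CPM in the controls. The groups did not overlap, and its log2 fold change was 0.64 ± 0.22 (adjusted p = 0.105), or 0.30 without knockout-labelled replicate 3, while DESeq2 called it (adjusted p = 0.0168). Of 6 tested genes for retinol and thyroxine handling, 0 were called (2 at an unadjusted p under 0.05). Of 2 tested for vitamin D handling, 0 were called (1 at an unadjusted p under 0.05).

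The 5 genes most like Gcg over the 6 libraries were on none of the marker lists. Among 3641 other genes whose mean log2 CPM was 5 or more, the highest Pearson r with Gcg on the log2 CPM scale belonged to Cct7, a chaperonin subunit (r = 0.997, Spearman rho = 1), and Tmed9, a cargo protein of the early secretory pathway (r = 0.991, rho = 1). Atp5g3, a subunit of mitochondrial ATP synthase (r = 0.990, rho = 1), Ubr4, a ubiquitin ligase (r = 0.989, rho = 0.943), and Magt1, a magnesium transporter (r = 0.988, rho = 1), came next. Without controls 2 and 3, the libraries farthest from the median in Gcg, r lay between 0.963 for Tmed9 and 0.998 for Cct7. These are the extremes of many genes over 6 libraries that share label and depth, so they are given as a description without a p. Slc38a5 ranked 14 (r = 0.971, rho = 0.829), Etv1 44 and Smarca1 109 (r = 0.898). Gc ranked 172 (r = 0.868), Ttr 194 (r = 0.858) and Pcsk2 1426 (r = 0.366). Of the insulin genes, Ins1 ranked 278 (r = 0.83) and Ins2 1375 (r = 0.401). The place of Pcsk2 leaned on controls 2 and 3, since without them its r was 1 after rounding. In the same setting r was 0.951 for Etv1, 0.829 for Slc38a5, 0.804 for Ttr and 0.793 for Smarca1. It was 0.706 for Gc, 0.654 for Ins1 and 0.341 for Ins2.

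Other cell types differed between the same libraries, and their part in the values above was not tested. Over all genes tested, 4.14% were called higher and 2.63% lower in the knockout-labelled libraries. Acinar markers summed to between 26192 and 30010 CPM in the knockout-labelled libraries and between 1013 and 11017 CPM in the controls, with 1 of 14 called higher (Amy1, log2 fold change 2.10). Macrophage sums lay between 259 and 332 CPM in the knockout-labelled libraries against 149 to 157 CPM in the controls, with 5 of 8 called higher, Cd68 (1.98), C1qc (1.10), Lyz2 (1.73) and Laptm5 (1.21) among them. Duct (2 of 5, Clu and Spp1), endothelial (3 of 6, Pecam1, Vwf and Tek) and stellate markers (3 of 7, Dcn, Lum and Pdgfra) had higher called members and no lower ones, and all 7 proliferation markers rose, including Mcm5, Rrm2, Mcm6 and Ccnb1. Of 5 delta, PP and epsilon cell genes, Hhex (0.50) and Pyy (1.03) rose, while Sst (0.68 ± 0.20, adjusted p = 0.0654) and Ppy (1.05 ± 0.55, adjusted p = 0.252) were not called. Of the non-β cell calls named here, those of Dcn, Lum, Cd68, Mcm5 and Rrm2 held under all 14 alternatives. Each of the other named calls was lost under 1 to 7 of them. Calls counted but not named here were not followed through the alternatives. Of 10 β cell markers, Ucn3 (−0.86), Nkx6-1 (−0.65), Slc2a2 (−1.15) and Slc30a8 (−0.81) fell and 6 were not called. All 4 missed the threshold without knockout-labelled replicate 1 and without control 2, Nkx6-1, Slc2a2 and Slc30a8 also without control 3, and Slc30a8 also without knockout-labelled replicate 3. Their adjusted p ran up to 0.0771 for Ucn3, 0.0787 for Nkx6-1, 0.0932 for Slc2a2 and 0.101 for Slc30a8. The summed level of the 10 β cell markers, mostly insulin, overlapped at 393631 to 448313 CPM in the knockout-labelled and 367130 to 495976 CPM in the control libraries.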

How the data were processed

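Per the labels' protocols, islet RNA was purified on small columns, and 10 ng of it was copied from poly-dT primers with low-input SMART-Seq v4 chemistry, sheared by sonication and made into Ion Plus libraries. This chemistry keeps no strand, and amplification adds noise to rare transcripts such as Pou3f4. The submitters' processing notes list mm10, the aligner STAR (2.4.2a), Subread (1.5.0) with featureCounts, and edgeR; no source used here gives the annotation or the strand and multi-mapping settings. The deposited values are whole-number counts per gene, not normalized, and the deposited exon length (in bp, another unit) was used for levels per kb.

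The members and gene lists were chosen with earlier results of these data known. edgeR 4.0.16 (R 4.3.3) was run on all counts with TMM factors, its default filter by group, quasi-likelihood fits and group as the only term; 13736 genes were tested and p-values adjusted by Benjamini-Hochberg over all of them, with a threshold of 0.05. Standard errors come from the fold change and the F value. Ratios used log2 with 0.5 counts added to both genes (none added for Gcg over insulin) and exact two-sided permutation tests in scipy 1.17.1. Libraries within a label differed by more than counting noise (chi-square per degree of freedom of 11.2 or more). None of the 7 members had exons overlapping another gene in the table, ignoring strand. The procedure was tested on simulated data. The named genes were the 7 members, up to 4 called genes of each list, a set named whatever the p, and the 5 genes most like Gcg; other names complete counts of 5 or fewer. Promoter letters are RefSeq's (GRCm38.p6), which held 5 of the 7 members. Alternatives were RLE or upper-quartile factors, TMM without hormone and acinar genes, other filters, DESeq2 1.42.0, limma-voom (limma 3.58.1), a replicate block and leaving out each library. The same 13736 genes were tested in each except with no filter (18016) and with at least 1 CPM in 3 libraries (12687). Some genes named by that rule are not reported here.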

Additional observations from a re-analysis of the deposited data

How the results depend on the processing

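With 3 libraries a label, single libraries set much of what passed. With each library left out in turn, 0 to 1 of the members were called (Gc, without knockout-labelled replicate 2 or control 1) and 60 to 1028 of all genes, against 0 and 929 with all 6 libraries. Among the list genes that are no members, 7 to 27 rose and 0 to 13 fell, against 23 and 13. With no filter on low counts 1 member (Gc), 1413 genes and 36 rises in the lists were called, and DESeq2 called 1702 genes and 0 members. The replicate block called 0 members and 826 genes. The correlations of same-numbered libraries' deviations from their group means were −0.037, −0.007 and 0.055, and not every library correlated best with its own number. Deviations from means of 3 libraries cannot settle whether the numbers pair libraries, and the labels did not say.

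Directions near 0 were not stable. The log2 fold change of Irx1 ran from −0.56 to 0.18 with a library left out and was 0.0022 in limma-voom. In the same order, Alb ran from −0.83 to 1.11, Pcsk2 from −0.14 to 0.076, Scg5 from −0.13 to 0.20, Gcgr from −0.18 to 0.10, Smarca5 from −0.13 to 0.11, Ins1 from −0.0172 to 0.23 and Ins2 from −0.19 to 0.0414. Alb was 0.50 in limma-voom and 0.20 with the block, and upper-quartile factors gave 0.0097 for Pcsk2 and 0.0129 for Smarca5. Per Gcg count, Irx2 ran from −0.17 to 0.0904 (0.0615 without knockout-labelled replicate 2) and Ttr from −0.04 to 0.58. The cause of these shifts was not tested. Gcg, Irx2, Gc, Ttr and Smarca1 kept a positive log2 fold change under all 14 alternatives. At 1 CPM in 3 libraries Alb was not tested.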
